A study of Homo sapiens with 8 samples.

Results

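Transcripts of 9 enzymes that make, remodel or break down sphingomyelin and glycosphingolipids were followed in brain-metastatic breast cancer cells with and without knockdown of the receptor tyrosine kinase MET. The genes were given by name (SGMS1, SGMS2, SMPD1, SPHK1, UGCG, B4GALT5, B4GALT6, ST3GAL5 and B3GNT5), and every probe set that the array annotation assigns to one of them alone was taken. They have 20 probe sets, and they are 9 of the 18239 genes on the array and 9 of the 13002 whose level passed the filter described next. A gene with several probe sets is represented by the brightest, averaged over the 8 arrays. It was tested if 2 or more arrays exceeded a log2 value of 4.41, below which 40% of all array values lie. All 9 passed on all 8 arrays. The genes were chosen by pathway name with log2 values of these same arrays already known, and which of those values guided the choice is not recorded. All values and calls of the 9 genes below are therefore descriptions and are not independent evidence.

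The study used 2 lines of breast cancer cells selected for growth in the brain, 231BrM and SKBrM3, each carrying a doxycycline-inducible short hairpin against MET. The 8 Affymetrix arrays form 4 groups of 2: 231BrM with doxycycline, 231BrM control, SKBrM3 with doxycycline and SKBrM3 control. Treated cells received 100 ng doxycycline (no volume is given) for 48 h, and all cells were grown in DMEM with serum. Control cells carry the same construct, and no group of doxycycline-treated cells without it is among these arrays, so what the drug does and what the hairpin does cannot be told apart. MET was 13.5-fold lower with doxycycline in 231BrM and 11.3-fold lower in SKBrM3 in the brightest probe set (log2 differences -3.76 and -3.50). With all MET probe sets averaged the log2 differences were smaller, at -1.71 and -1.88. By background knowledge 231BrM derives from MDA-MB-231, a mesenchymal-like line, and SKBrM3 from SK-BR-3, an epithelial line with amplified ERBB2. The SKBrM3 arrays did not have higher ERBB2 in both conditions: it averaged 7.01 with doxycycline and 6.71 in control there, against 6.83 and 6.81 in 231BrM. ESRP1, an epithelial splicing factor, lay under the filter in all 4 groups. Below, SKBrM3 therefore means only the arrays labelled so. Of 8 marker genes of other cell types 5 passed the filter, with a summed log2 value over all 8 of 38.7 to 39.7 on the 8 arrays. Over the 4 groups the means of the 5 were 8.24 to 8.30 for CD68, 5.30 to 5.66 for PECAM1, 5.27 to 5.37 for VWF, 4.44 to 4.91 for COL1A1 and 4.89 to 5.02 for GFAP. The 3 others, PTPRC (leukocytes), COL3A1 (fibroblasts) and AQP4 (astrocytes), did not pass. Of 12 genes typical of SK-BR-3, 11 passed the filter, and the summed log2 value of all 12 was lower in SKBrM3 (77.0 to 78.2 with doxycycline, 78.7 to 79.2 in control) than in 231BrM (81.6 with doxycycline, 81.3 to 81.9 in control). KRT19, a keratin, averaged 6.72 with doxycycline and 6.82 in control in SKBrM3, against 9.35 and 9.41 in 231BrM. KRT8, KRT18 and SPDEF were also lower in SKBrM3 in both conditions. Not each of the 12 was lower there: FOXA1, a luminal transcription factor, averaged 5.83 with doxycycline and 6.39 in control in SKBrM3, against 4.59 and 5.02 in 231BrM. STARD3 (9.01 and 8.88, against 8.72 and 8.81) and PGAP3 (6.32 and 6.36, against 6.21 and 6.05) were also higher in SKBrM3 in both conditions. GRB7, GRHL2, ELF3 and ESRP1 were higher there in control only, and ERBB2 with doxycycline only. All 8 genes typical of MDA-MB-231 passed the filter, and their sum was also lower in SKBrM3 (80.8 to 80.9 with doxycycline, 80.2 in control) than in 231BrM (84.6 with doxycycline, 84.0 to 84.7 in control). Among them VIM, a mesenchymal filament protein, averaged 12.7 with doxycycline and 12.8 in control in SKBrM3, against 12.8 and 12.9 in 231BrM. SPARC, a matrix protein, had the widest gap of the 8 and averaged 4.22 and 4.21 in SKBrM3, against 7.29 and 6.95 in 231BrM. CAV1, CD44 and FOSL1 were also lower in SKBrM3 in both conditions. ZEB1 and MSN were instead higher in SKBrM3 in both conditions, and AXL with doxycycline only. ZEB1 averaged 8.79 and 8.92 there, against 8.71 and 8.74 in 231BrM, and MSN 11.57 and 11.55, against 11.42 and 11.52. One array stood apart: on 231BrM doxycycline replicate 1 actin control probes read 1.24 log2 units higher at the 3' end than at the 5' end, a reading known to rise with shortened RNA. The other 7 arrays had 0.46 to 0.59. Differences without that array are given below for SGMS2, B3GNT5 and UGCG, and not for every gene.

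Sphingolipids are built on ceramide, which cells convert along competing routes. Sphingomyelin synthases move a phosphocholine head group from phosphatidylcholine to ceramide, and sphingomyelinases remove it again. The other route adds glucose and then galactose to give lactosylceramide, the branch point from which sialic acid leads to gangliosides and N-acetylglucosamine leads to the lacto- and neolacto-series, whose sugar chains carry blood-group-type antigens. Sphingosine, freed from ceramide, is phosphorylated to sphingosine 1-phosphate, a signalling lipid. Ganglioside-modifying enzymes are known in breast cancer for the sialyltransferase ST6GALNAC5, which has been linked to passage of breast cancer cells into the brain.

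SGMS2 and B3GNT5 were the members called lower with doxycycline in both lines (limma adjusted p under 0.05), and their promoter sequences are shown for that reason. They lie on different chromosomes and head different branches of the pathway. The 250 bases before the first annotated start of each are printed 5' to 3' on the + strand, from RefSeq (GRCh38.p14). For SGMS2 this is chr4:107824313-107824562 and for B3GNT5 chr3:183253003-183253252. Capitals mark matches, on either strand, to 5 motifs: AP-1 (TGANTCA), GC box (GGGCGG), STAT (TTCNNNGAA), and the NF-kB and serum response factor CArG consensus.
SGMS2: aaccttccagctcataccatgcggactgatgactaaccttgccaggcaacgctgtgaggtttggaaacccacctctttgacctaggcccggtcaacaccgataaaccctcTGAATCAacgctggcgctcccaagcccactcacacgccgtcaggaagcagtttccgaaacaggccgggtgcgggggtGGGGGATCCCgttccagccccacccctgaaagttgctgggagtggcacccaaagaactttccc
B3GNT5: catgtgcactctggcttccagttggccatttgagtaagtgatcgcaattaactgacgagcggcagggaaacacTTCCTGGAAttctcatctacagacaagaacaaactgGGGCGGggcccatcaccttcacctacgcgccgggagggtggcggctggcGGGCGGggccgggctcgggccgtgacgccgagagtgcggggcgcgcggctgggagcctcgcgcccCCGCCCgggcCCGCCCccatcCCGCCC
The SGMS2 window held 1 AP-1 match, 140 bases before the start, and 1 NF-kB match, 63 bases before it. The B3GNT5 window held 5 GC boxes, at 141, 92, 27, 17 and 6 bases before the start, and 1 STAT match at 177 bases. No motif of the 5 occurred in both windows, and no matches overlapped each other. Their GC contents were 58.8% and 68.0%. Of all 34943 RefSeq windows of this length, 6.59% held an AP-1 match, 42.6% a GC box, 5.20% an NF-kB match, 6.56% a STAT match and 1.16% a CArG box. Of the other annotated SGMS2 starts, 1 had an AP-1 match and 2 GC boxes before it and 1 had no match to any motif. Windows were found for 8 of the 9 members, B4GALT6 being the other, and of their 16 windows, some of which overlap, 3 held an AP-1 match, 11 a GC box, 2 an NF-kB match, 2 a STAT match and 0 a CArG box. Of the 3 windows with an AP-1 match, 2 belong to SGMS2 and 1 to SPHK1. A match of letters is a description and not a bound site.

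Among the enzymes of sphingomyelin, SGMS2 was lower with doxycycline in both lines. SGMS2 encodes the sphingomyelin synthase known to work at the plasma membrane as well as the Golgi. Its log2 values were 7.75 and 7.60 on the 231BrM doxycycline arrays, against 8.36 and 8.32 on the 231BrM control arrays. In SKBrM3 they were 6.03 and 6.12 with doxycycline, against 7.55 and 7.59 in control. In each line both doxycycline arrays lay below both controls, and the SKBrM3 doxycycline arrays were the lowest of the 8. The difference was -0.66 in 231BrM (standard error 0.083, 1.59-fold lower, limma adjusted p = 0.0248) and -1.49 in SKBrM3 (standard error 0.083, 2.80-fold lower, limma adjusted p = 9.46e-05). In such bulk samples fewer cells of a kind and less RNA per cell cannot be told apart. By size of fall SGMS2 ranked 56 of 13002 genes in 231BrM and 11 of 13002 in SKBrM3. A second SGMS2 probe set, whose level was close to the filter, gave -0.33 in 231BrM and -0.36 in SKBrM3. Its arrays also did not overlap in either line, but it was called in neither (limma adjusted p over all probe sets tested 0.410 and 0.0827). The remaining one lay under the filter on all arrays, where differences of 0.14 and -0.05 carry little signal.

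SGMS1, the Golgi enzyme that makes most sphingomyelin in many cells, was not called in either line. It had 8.15 and 8.08 in 231BrM with doxycycline, against 8.29 and 8.28 in control, and 7.82 and 8.03 in SKBrM3 with doxycycline, against 8.001 and 7.73 in control. The groups did not overlap in 231BrM and overlapped in SKBrM3. The differences were -0.17 in 231BrM (95% interval -0.42 to 0.09) and 0.06 in SKBrM3 (-0.19 to 0.31). The second SGMS1 probe set gave -0.01 and -0.19, so the line with the lower value depends on the probe set. No test of the difference between SGMS1 and SGMS2 was made.

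SMPD1 encodes acid sphingomyelinase, the lysosomal enzyme that returns sphingomyelin to ceramide. It had 6.61 and 6.55 in 231BrM with doxycycline, against 6.49 and 6.38 in control, a difference of 0.15 (95% interval -0.15 to 0.44). In SKBrM3 it had 6.17 and 5.74 with doxycycline, against 5.86 and 5.78 in control, a difference of 0.14 (-0.16 to 0.43). The higher mean in SKBrM3 came from replicate 1, and replicate 2 lay below both controls. SPHK1 encodes a kinase that makes sphingosine 1-phosphate. It had 7.40 and 7.38 in 231BrM with doxycycline, against 7.36 and 7.34 in control. In SKBrM3 it had 7.58 and 7.49 with doxycycline, against 7.60 and 7.59 in control. Its differences of 0.04 (95% interval -0.13 to 0.21) and -0.06 (-0.23 to 0.11) were not called.

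**Figure D1:**
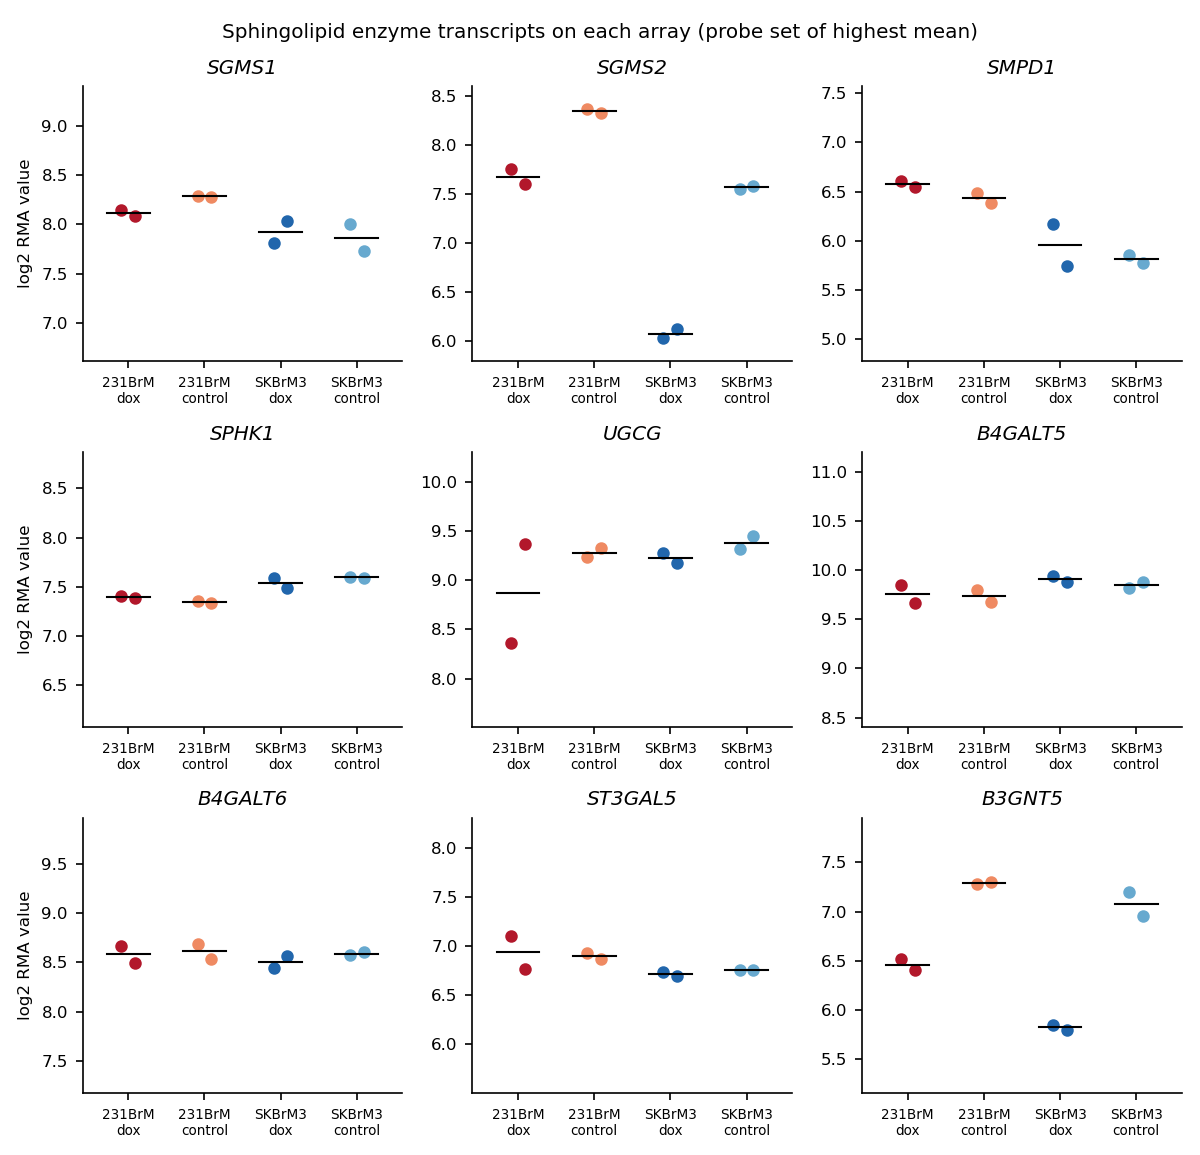
Log2 RMA values (y axis) of the 9 enzymes on each array, with doxycycline arrays left of control arrays in each line (x axis). Points are the 2 arrays of a group, the black line is their mean, and every panel spans the same number of log2 units around its own values. SGMS2 and B3GNT5 are lower with doxycycline in both lines, and UGCG is low on 1 231BrM doxycycline array, at 8.36.

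UGCG encodes glucosylceramide synthase, which commits ceramide to the glycosphingolipid route. It had 8.36 and 9.37 in 231BrM with doxycycline, against 9.23 and 9.32 in control. The low value was on replicate 1, the array with raised 3' signal, and the other doxycycline array lay above both controls. The part of RNA quality in that value was not tested. The difference was -0.41 (95% interval -1.0 to 0.17) and was 0.09 without that array. Without the other doxycycline array it was -0.92 with a limma adjusted p = 0.00143, a call that rests on 1 array in the group and on the spread of the others. In SKBrM3 UGCG had 9.27 and 9.17 with doxycycline, against 9.32 and 9.45 in control, a difference of -0.16 (-0.74 to 0.43), with no overlap between the groups. The gap of 1.01 between the 2 doxycycline arrays of 231BrM widens both intervals, because the lines share 1 estimate of the spread.

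B4GALT5 and B4GALT6 encode the galactosyltransferases that make lactosylceramide, the precursor of gangliosides and of the lacto-series. B4GALT5 had 9.85 and 9.67 in 231BrM with doxycycline, against 9.79 and 9.67 in control, and 9.94 and 9.88 in SKBrM3 with doxycycline, against 9.82 and 9.88 in control. B4GALT6 had 8.67 and 8.49 in 231BrM with doxycycline, against 8.69 and 8.54 in control, and 8.45 and 8.56 in SKBrM3 with doxycycline, against 8.58 and 8.61 in control. Arrays of 231BrM overlapped for both genes. Those of SKBrM3 did not, with doxycycline higher for B4GALT5 and lower for B4GALT6, where 32.3% and 27.2% of all genes did so. The differences were 0.02 and 0.06 for B4GALT5 and -0.03 and -0.09 for B4GALT6 (231BrM and SKBrM3), and the 4 intervals together span -0.30 to 0.27. The 2 remaining B4GALT5 probe sets, both past the filter, had differences of -0.14 and -0.21 in 231BrM and -0.04 and -0.20 in SKBrM3. The 2 further B4GALT6 probe sets past it had -0.11 and -0.07 in 231BrM and 0.06 and -0.35 in SKBrM3. The value of -0.35 came from a probe set with levels of 5.31 and 5.49 with doxycycline, against 5.64 and 5.86 in control, and it was not called when probe sets were tested one by one (limma adjusted p = 0.242).

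ST3GAL5 encodes GM3 synthase, which adds sialic acid to lactosylceramide and so opens the ganglioside branch. It had 7.11 and 6.77 in 231BrM with doxycycline, against 6.93 and 6.87 in control. In SKBrM3 it had 6.73 and 6.70 with doxycycline, against 6.76 and 6.75 in control. The 2 doxycycline arrays of 231BrM lay on either side of the controls. The differences were 0.04 (95% interval -0.22 to 0.29) and -0.04 (-0.29 to 0.21), and neither was called. The other ST3GAL5 probe set lay under the filter on all arrays.

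B3GNT5, the N-acetylglucosaminyltransferase that opens the lacto- and neolacto-series from lactosylceramide, was the second member called lower in both lines. It had 6.52 and 6.40 in 231BrM with doxycycline, against 7.28 and 7.30 in control. In SKBrM3 it had 5.85 and 5.80 with doxycycline, against 7.20 and 6.95 in control. In each line both doxycycline arrays lay below both controls, by more than the gap between the arrays of any group. The difference was -0.83 in 231BrM (standard error 0.098, 1.78-fold lower, limma adjusted p = 0.0202) and -1.26 in SKBrM3 (standard error 0.098, 2.39-fold lower, limma adjusted p = 0.000518). It ranked 30 of 13002 genes by size of fall in 231BrM and 18 of 13002 in SKBrM3. The second B3GNT5 probe set, which exceeded the filter on 5 arrays, gave -0.69 in SKBrM3 (limma adjusted p over all probe sets tested 0.0321). In 231BrM it gave -0.09, with 4.34 and 4.60 with doxycycline, against 4.47 and 4.63 in control, so the fall in 231BrM rests on 1 of the 2 probe sets.

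**Figure D2:**
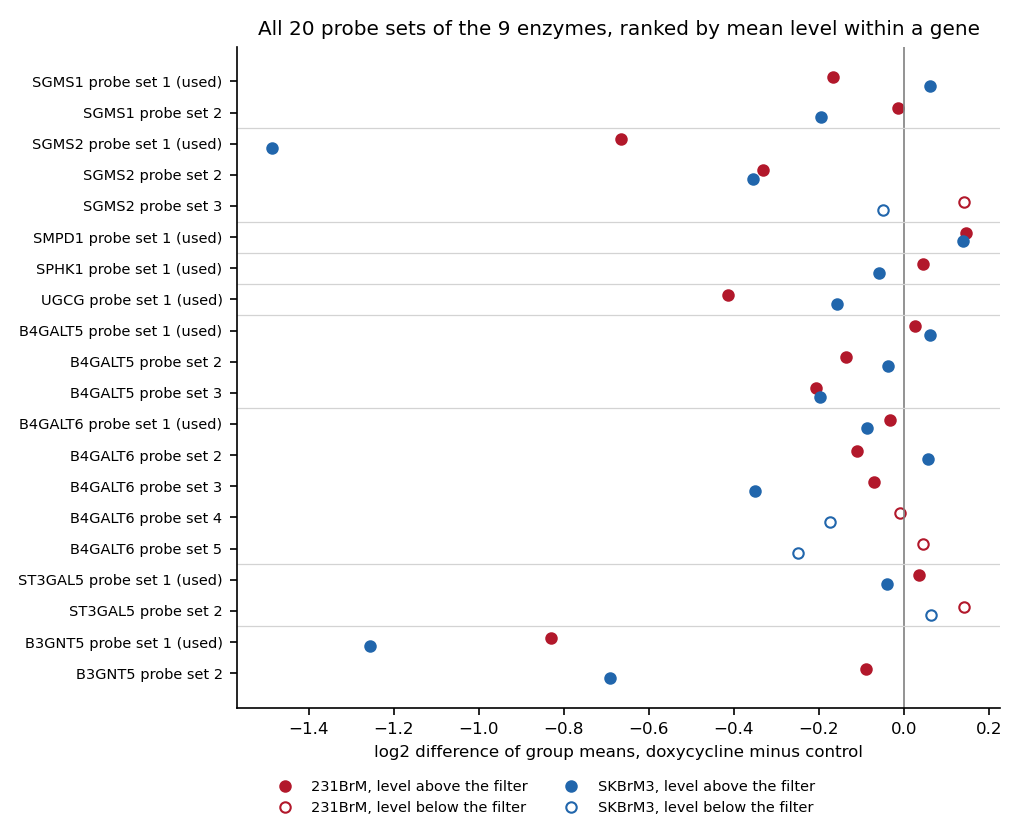
Doxycycline minus control difference of group means (x axis, log2) for each of the 20 probe sets (rows), in 231BrM (red) and SKBrM3 (blue), with open circles where the probe set does not pass the filter. Within each line the 2 lowest are the first probe sets of SGMS2, at -0.66 in 231BrM and -1.49 in SKBrM3, and of B3GNT5, at -0.83 and -1.26.

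Over the whole set, 2 of 9 members were called lower and 0 higher in 231BrM, where 0.162% of all genes tested were called lower and 0% higher. In SKBrM3 the counts were again 2 lower and 0 higher, where 2.28% of all genes were called lower and 1.15% higher, 3.43% in all. Both counts are SGMS2 and B3GNT5. The median difference of the members was -0.03 in 231BrM and -0.06 in SKBrM3, against 0.05 and 0.01 over all genes tested. Groups did not overlap for 3 members that were lower and 2 that were higher in 231BrM, where 12.1% and 25.8% of all genes did so. In SKBrM3 6 members were lower without overlap and 1 was higher, where 27.2% and 32.3% of all genes did so. In SKBrM3 the 2 calls were made under all 16 alternative settings tried. In 231BrM they depend on the fit: 0 of 9 were called without either 231BrM control array, without either SKBrM3 doxycycline array, with array weights, with the 4 231BrM arrays alone, or with probe sets averaged or tested one by one. Without either SKBrM3 control array B3GNT5 alone was called. Without 231BrM doxycycline replicate 1 both were called, with differences of -0.74 for SGMS2 and -0.89 for B3GNT5, and without replicate 2 UGCG was called besides them. With the mean of all probe sets of a gene the 231BrM differences were -0.29 for SGMS2 (limma adjusted p = 0.229) and -0.46 for B3GNT5 (limma adjusted p = 0.0644).

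**Figure D3:**
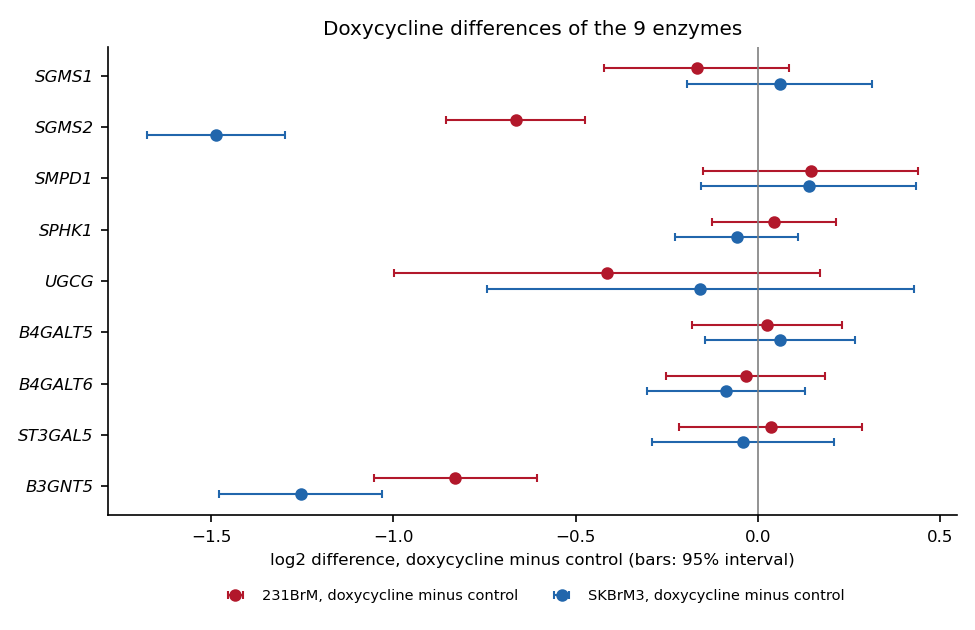
Doxycycline minus control difference (x axis, log2) of each enzyme with its 95% interval from the limma fit, in 231BrM (red) and SKBrM3 (blue), from 2 arrays per group. The intervals of SGMS2 and B3GNT5 lie below 0 in both lines and those of the other 7 genes include 0.

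**Figure D4:**
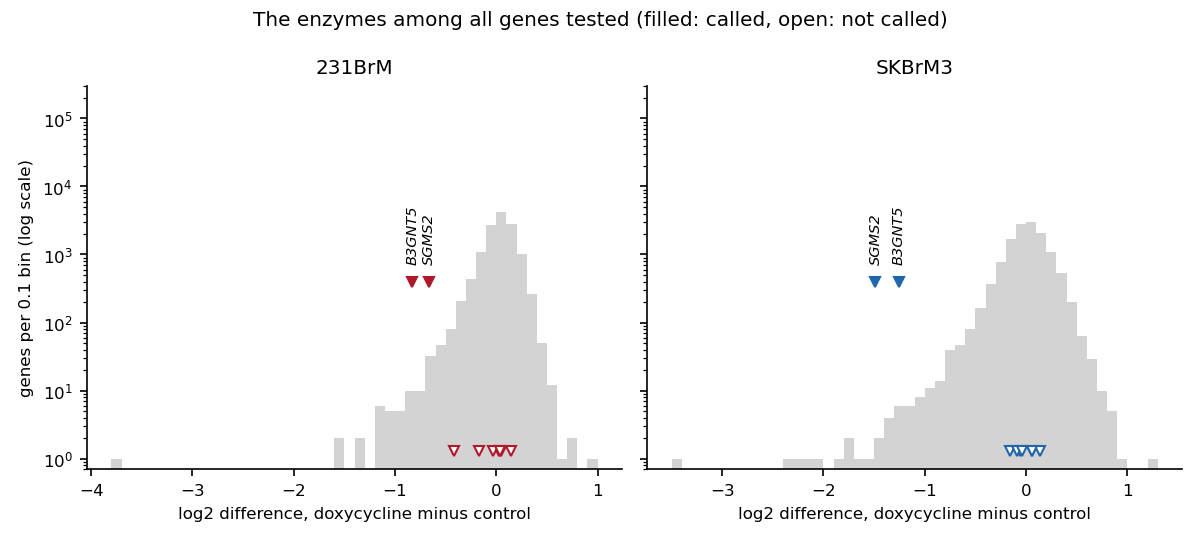
Number of genes (y axis, log scale) by doxycycline minus control difference (x axis, log2, bins of 0.1) over all 13002 genes tested, with the 9 enzymes marked by triangles whose height has no meaning. SGMS2 and B3GNT5, the filled triangles, lie in the lower tail in both lines. Of the 7 open ones UGCG is lowest in 231BrM, at -0.41, and the others lie between -0.17 and 0.15 there.

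Whether the falls of SGMS2 and B3GNT5 differed between the lines was tested directly, as the effect in 231BrM minus that in SKBrM3. The difference was 0.82 for SGMS2 (95% interval 0.55 to 1.09, unadjusted p = 8.24e-05, limma adjusted p = 0.134) and 0.43 for B3GNT5 (0.11 to 0.74, unadjusted p = 0.0141, limma adjusted p = 0.336). Neither passed the adjustment over all genes, and 0.0231% of all genes did. The second SGMS2 probe set gave 0.02 (limma adjusted p over all probe sets tested 0.962), and the mean of the SGMS2 probe sets gave 0.35 (limma adjusted p = 0.303). The second B3GNT5 probe set gave 0.60 (limma adjusted p over all probe sets tested 0.441). Of the other 7 members, none had an unadjusted p under 0.05 in this limma test, where 560 of all genes were lower and 892 higher at that level. Without 231BrM doxycycline replicate 1 the difference was 0.75 for SGMS2 and 0.37 for B3GNT5. Without replicate 2 it was 0.90 for SGMS2 (limma adjusted p = 0.00743), and UGCG was called too, at -0.76.

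Without doxycycline the lines differed in 4 members, 3 higher and 1 lower in 231BrM, where 19.8% of all genes were called higher and 19.9% lower, 39.7% in all. The arrays did not overlap for 5 members higher and 2 lower, where 33.2% and 43.6% of all genes did so. Control values of SGMS2 were 8.36 and 8.32 in 231BrM, against 7.55 and 7.59 in SKBrM3, a difference of 0.77 (standard error 0.083, limma adjusted p = 0.000157). For SMPD1 they were 6.49 and 6.38 in 231BrM, against 5.86 and 5.78 in SKBrM3, a difference of 0.62 (standard error 0.130, limma adjusted p = 0.00551). SGMS1 was higher by 0.42 in the probe set used (limma adjusted p = 0.0157), while its other probe set gave 0.02. SPHK1 was 0.25 lower in 231BrM (log2 difference -0.25, limma adjusted p = 0.0276), a small change with no overlap between the groups. SGMS1 was not called without either 231BrM control array or SKBrM3 control replicate 2 (difference 0.28), and SPHK1 was not called without any 1 of the 4 control arrays. B3GNT5, UGCG, B4GALT5, B4GALT6 and ST3GAL5 were not called, though B3GNT5 was without SKBrM3 control replicate 1 (difference 0.34, limma adjusted p = 0.0455). For B3GNT5 the probe set used gave 0.21 and the other -0.32, so its direction between the lines depends on the probe set. From high to low, the group means of SGMS2 ran 231BrM control, 231BrM doxycycline, SKBrM3 control and SKBrM3 doxycycline. The middle groups nearly touch, at 7.60 and 7.59, and were not tested against each other. For B3GNT5 it was 231BrM control, SKBrM3 control, 231BrM doxycycline and SKBrM3 doxycycline, and the controls of the 2 lines were not called different.

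**Figure D5:**
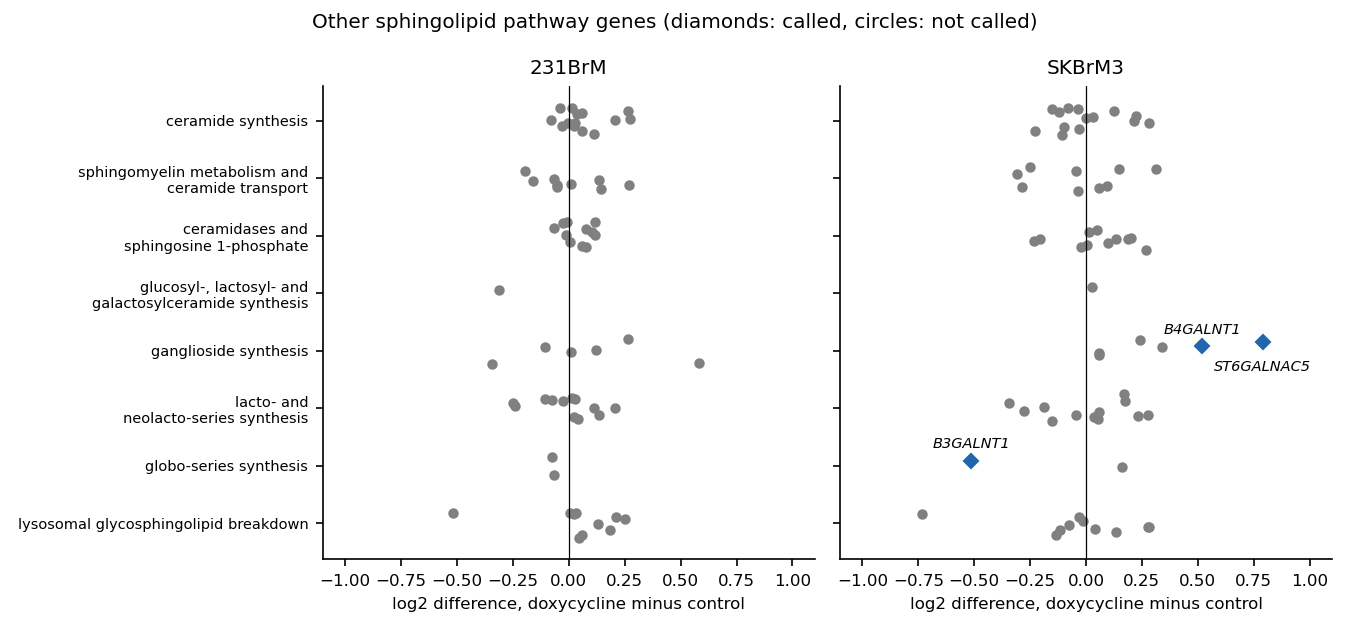
Doxycycline minus control difference (x axis, log2) of the 65 other tested genes of sphingolipid metabolism, by list (rows), in 231BrM and SKBrM3. In 231BrM none is called, and in SKBrM3 ST6GALNAC5 at 0.79, B4GALNT1 at 0.52 and B3GALNT1 at -0.51 are called.

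The rest of sphingolipid metabolism was set beside these enzymes through 8 lists with 88 further genes, of which 83 are on the array and 65 passed the filter. In 231BrM 0 of 65 were called by limma, and before adjustment 4 lower and 6 higher had p under 0.05, against 486 lower and 800 higher of all 13002 genes. In SKBrM3 2 were called higher and 1 lower, where 3.43% of all genes were called in either direction. Before adjustment the counts were 8 lower and 9 higher, against 1276 and 1355 of all genes. The median differences of the 65 were 0.02 in 231BrM and 0.03 in SKBrM3. ST6GALNAC5, a sialyltransferase acting on gangliosides, had 7.03 and 7.09 in SKBrM3 with doxycycline, against 6.32 and 6.22 in control (difference 0.79, limma adjusted p = 0.0117), and 0.58 in 231BrM. B4GALNT1, the synthase of the gangliosides GM2 and GD2, had 6.02 and 5.98 in SKBrM3 with doxycycline, against 5.43 and 5.53 in control (difference 0.52, limma adjusted p = 0.0167), and 0.27 in 231BrM. B3GALNT1, which makes the globo-series lipid globoside, had 8.30 and 8.27 in SKBrM3 with doxycycline, against 8.87 and 8.73 in control (difference -0.51, limma adjusted p = 0.0237), and -0.08 in 231BrM. The difference between the lines was not called for any of the 3 (limma adjusted p = 0.299 to 0.673). None of the 3 was called in SKBrM3 without any 1 of the 4 SKBrM3 arrays, with differences of 0.74 to 0.84 for ST6GALNAC5, 0.47 to 0.57 for B4GALNT1 and -0.58 to -0.45 for B3GALNT1, and B3GALNT1 was also not called without either 231BrM control array. Without either 231BrM doxycycline array 7 of the 65 were called higher and 4 lower in SKBrM3. In 231BrM 1 was called lower without doxycycline replicate 1, and 7 higher and 2 lower without replicate 2, which leaves the array with the raised 3' signal alone in its group.

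By list, 0 of 14 tested genes of ceramide synthesis were called in either line (ranges -0.08 to 0.27 in 231BrM and -0.23 to 0.28 in SKBrM3). The same held for 9 other genes of sphingomyelin metabolism and ceramide transport (-0.19 to 0.27 and -0.31 to 0.31) and for 11 of ceramidases and sphingosine 1-phosphate (-0.06 to 0.12 and -0.23 to 0.27). Of 12 other lacto- and neolacto-series genes 0 were called (-0.25 to 0.21 and -0.34 to 0.28). Of 6 other ganglioside genes 2 rose in SKBrM3, and of 2 globo-series genes 1 fell there. Of 10 genes of lysosomal breakdown 0 were called. The lowest of these was FUCA1, a lysosomal fucosidase, at -0.52 in 231BrM and -0.73 in SKBrM3 (limma adjusted p = 0.437 and 0.0694). In each line both doxycycline arrays of FUCA1 lay below both controls. Over the 16 alternative settings its difference ran from -0.837 to -0.203 in 231BrM and from -0.827 to -0.387 in SKBrM3. FUCA1 was called under 1 of the 16 in 231BrM and 5 of the 16 in SKBrM3. UGT8, the galactosylceramide synthase, was the remaining gene tested, at -0.31 and 0.03.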

How the data were processed

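Total RNA was measured on 8 single-colour Affymetrix arrays, 2 for each of the 4 groups, which were taken from the sample titles. The authors deposited log2 values for each probe set on each array, which they made with RMA according to the submitters' processing notes. The sources used here name no version, software or build. Quantile normalization, a step of RMA, hides changes in total RNA per cell. Of 49386 probe sets, 45253 name 1 gene, 1327 several, 2713 none and 93 are controls. A RefSeq gene table (GRCh38.p14) gave current symbols, by gene ID, for 45172.

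From the deposited log2 values, 13002 genes were fitted with limma 3.58.1 in R 4.3.3 (lmFit and eBayes, 4 group means, 4 residual and 4.60 prior degrees of freedom). Tests were two-sided with Benjamini-Hochberg adjustment over all genes, and called means an adjusted p under 0.05. Steps were checked on simulated data. Precision is limited by 2 arrays per group: the median standard error of a doxycycline difference was 0.0968. Whether the replicates are separate cultures is not in the labels, and p-values reflect only how these arrays vary, perhaps for technical reasons. The members, lists, motifs and rules were chosen with earlier results of these data known. The rule names all members, MET, other listed genes called with doxycycline, up to 3 listed genes per direction called between the lines, and the 5 genes most correlated with the member of largest mean effect. UGT8 was named after its values were seen, to complete the lists. Scanner files were not analysed here.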

Additional observations from a re-analysis of the deposited data

How the results depend on the processing

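The falls of SGMS2 and B3GNT5 kept their direction under all 16 alternatives in each line. In SKBrM3 all 16 called both, with ranges of -1.53 to -0.63 for SGMS2 and -1.38 to -0.97 for B3GNT5 (limma adjusted p up to 0.00418 and 0.0121). In 231BrM 5 called SGMS2 (-0.74 to -0.29, limma adjusted p from 0.00544 to 0.401) and 8 called B3GNT5 (-0.89 to -0.46, limma adjusted p from 0.00515 to 0.294). Members called lower in 231BrM numbered 2 as reported, 0 with probe sets averaged, with probe sets as features, with array weights or with only the 4 arrays compared, 1 with the replicate block (B3GNT5, while SGMS2 had a limma adjusted p = 0.0532), and 0 to 3 when 1 array was left out. Between the control lines 1 member was lower, 0 with a spread trend and 0 to 1 when 1 array was left out, and for the difference of effects leaving out 1 array gave 0 to 1 higher and 0 to 1 lower. Over all genes, 231BrM had 21 lower and 0 higher, but 11 lower with array weights, 34 lower and 1 higher with a spread trend, 1 lower with only the 4 arrays compared, and 3 to 482 lower and 0 to 1168 higher when 1 array was left out. SKBrM3 had 150 higher and 296 lower, but 80 higher with probe sets as features, 799 and 806 with array weights, 627 and 621 with only the 4 arrays compared, and 3 to 833 and 49 to 798 when 1 array was left out. The difference had 3 higher, but 0 with probe sets as features, 5 and 1 lower with a spread trend, and 0 to 278 higher and 0 to 195 lower when 1 array was left out. Between the control lines 2580 were higher and 2587 lower, but 4946 and 4692 with probe sets as features, and 1686 to 3174 and 1583 to 3401 when 1 array was left out. Of the other 65 pathway genes, 2 were higher and 1 lower in SKBrM3, but 1 and 3 with probe sets averaged, 0 lower with probe sets as features, 7 and 5 with array weights, 3 lower with a spread trend, 6 and 5 with only the 4 arrays compared, and 0 to 7 higher and 0 to 4 lower when 1 array was left out. In 231BrM leaving out 1 array gave 0 to 7 higher and 0 to 2 lower, for the difference 0 to 1 lower, and between the control lines 15 to 24 higher and 5 to 11 lower. MET, not called between the control lines, was called at -0.22 with probe sets averaged, against 0.13 as reported. Among the fits without 1 array, the 482 lower and 1168 higher genes in 231BrM came without its doxycycline replicate 2, and the 3 lower without its control replicate 1. A fit without 1 array assumes that the lone array of its group varies like the other groups. The cause of these changes was not tested, apart from the number of features or arrays that each setting fixes. Same-numbered arrays deviated with correlations of 0.24 (231BrM), -0.01 (SKBrM3) and -0.06 (controls). With 2 arrays per group these values cannot show whether such arrays share more than a number. The replicate block called 16 genes lower in 231BrM and, in SKBrM3, 131 higher and 258 lower. No background was measured, so values near the filter level have no known floor.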

Other observations

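Between the control arrays of the lines, 21 of the 65 other sphingolipid genes were called higher in 231BrM and 10 lower, where 19.8% and 19.9% of all genes were. The 3 largest on the higher side were GALC, the lysosomal galactosylceramidase, FUCA1, a lysosomal fucosidase, and S1PR3, a receptor for sphingosine 1-phosphate. GALC had 7.98 and 8.12 in 231BrM, against 6.64 and 6.60 in SKBrM3 (difference 1.43, limma adjusted p = 4.84e-06). FUCA1 differed by 1.41 (limma adjusted p = 0.000421) and S1PR3 by 1.37 (limma adjusted p = 0.000103). The 3 largest on the lower side were B3GALNT1 (-1.05), the ceramidase ACER3 (-0.68) and HEXA (-0.50), which encodes a subunit of the hexosaminidase that degrades GM2. The HEXA difference ran from -0.54 to -0.28 over the same settings. Of 12 tested genes of the lacto- and neolacto-series besides B3GNT5, 7 were higher and 0 lower in 231BrM, with a median difference of 0.33, against -0.05 over all genes.

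The genes whose values followed those of SGMS2 most closely over the 8 arrays were MMGT1, CRIM1, BOD1, TGFBR1 and CCDC50, with Pearson correlations from 0.995 to 0.998. These points share 4 groups of 2 arrays, and the values are given as a description. All 5 were lower with doxycycline in both lines, with differences from -0.53 to -0.29 in 231BrM and from -1.21 to -0.63 in SKBrM3. Because the 5 were chosen for following SGMS2 on these same arrays, their shared direction is not a separate observation. B3GNT5 correlated with SGMS2 at 0.897 and ranked 238 among all genes tested.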
